A study of Homo sapiens with 12 samples.

Results

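The comparison described here is the mRNA stability difference between MDA-MB-231 cells that over-express a glutamate tRNA and mock cells. It is the change in signal from 0 h to 9 h of α-amanitin in the tRNA-Glu-OE arrays minus the same change in the Ctrl arrays. The labels' line and time placed 8 of the series' 12 arrays in it, with 2 arrays in each of 4 groups: mock 0 h, mock 9 h, tRNA-Glu 0 h and tRNA-Glu 9 h. MDA-MB-231 is a mesenchymal, triple-negative human breast cancer line. Stable over-expression used a Glu-TTC tRNA locus, whose transcript is tRNA-Glu(UUC), and the mock line carries the label Ctrl. All groups received α-amanitin at 10 µg/mL, for 0 or 9 h, before total RNA was extracted, given a biotin label and read on Illumina BeadChips. The labels do not state whether each line is a clone or a pool, nor whether the 2 arrays of a group came from separate cultures. P-values therefore measure the spread between those arrays, which may be technical, and the number of arrays limits the precision.

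A transfer RNA brings its amino acid to the ribosome when its anticodon pairs with a codon of the mRNA, and tRNA-Glu(UUC) reads the glutamate codon GAA. α-Amanitin binds RNA polymerase II and blocks new mRNA synthesis, so that the mRNA still present after some hours depends mainly on its decay. Polymerase III, which makes tRNAs, 7SK, U6 and Y RNAs, is less sensitive, and polymerase I and the mitochondrial polymerase are resistant. The question named in the series title is how 2 tRNAs affect mRNA stability. A positive stability difference means that less signal was lost, or more was gained, in the tRNA-Glu line than in the mock line.

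The arrays and the gene names come from different sources. The probe intensities carry only probe identifiers, so no gene could be read from them and neither the markers of the line nor the tRNA itself could be checked on the arrays. Gene names come only from the authors' deposited table, which lists a signed stability score for tRNA-Glu against control for each of 34602 genes without a replicate value, a p-value or an expression level. Mean raw intensity ran from 497 to 606 over the 12 arrays. The array tRNA-Glu 0 h replicate 1 lay apart on the second principal component of the log2 signals, at -30.1, with the other 0 h arrays between 0.903 and 10.7. The 2 tRNA-Glu 0 h arrays also differed most from each other, with an SD of probe differences of 0.286 on the log2 scale against 0.186 to 0.226 in the other 5 groups. The main array counts that rest on it are given with and without it, and its weight in the authors' deposited table is not known here.

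On the arrays 1 of 25456 tested probes (0.00393%) passed an adjusted p of 0.05 in limma's test of the stability difference, and it was higher in the tRNA-Glu line. Without adjustment, 4395 probes (17.3%) had a p under 0.05, of which 2065 (8.11%) were higher and 2330 (9.15%) lower in the tRNA-Glu line. The quartiles of the difference over all probes were -0.21 and 0.21 on the log2 scale, and the central 95% lay between -0.73 and 0.62. The median half-width of a probe's 95% confidence interval was 0.42, larger than either quartile. Leaving out tRNA-Glu 0 h replicate 1 gave 0 probes past the adjusted threshold and 3056 at an unadjusted p of 0.05. Leaving out tRNA-Glu 0 h replicate 2, which kept only the array that lay apart, gave 2281 and 6560. Without mock 0 h replicate 1 the count past the adjusted threshold was 2, without mock 0 h replicate 2 it was 24, without tRNA-Glu 9 h replicate 1 it was 4 and without tRNA-Glu 9 h replicate 2 it was 0. With median scaling in place of quantile normalization, 848 probes were higher and 4422 lower at an unadjusted p of 0.05, because that scaling moved the median difference of all probes from 0.01 to -0.13. The balance between higher and lower probes is thus relative to the scaling.

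**Figure D1:**
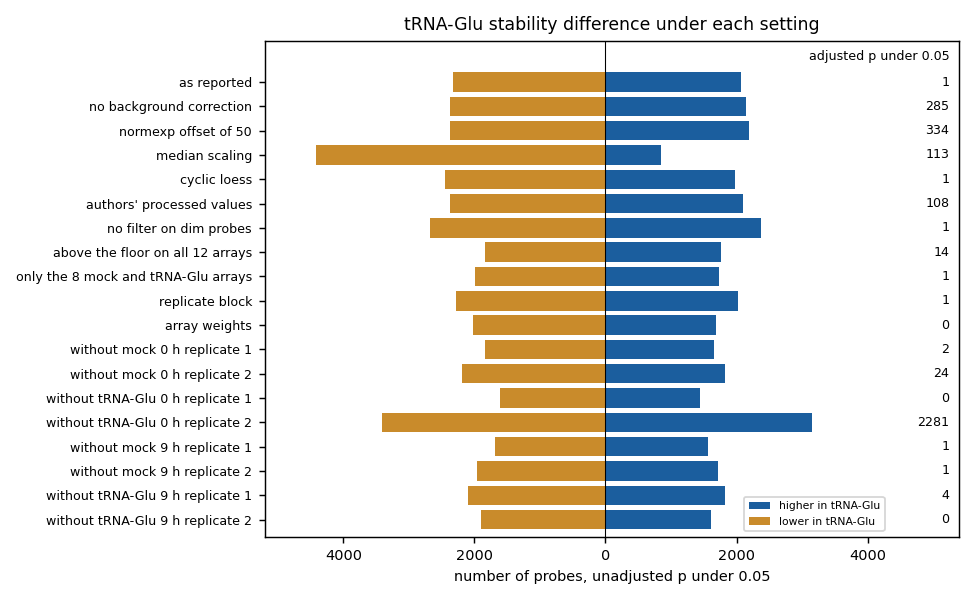
Number of probes with an unadjusted p under 0.05 in the tRNA-Glu stability difference, higher to the right and lower to the left, for each processing setting and each left-out array (rows), with the count past an adjusted p of 0.05 at the right. The reported fit has 2065 higher and 2330 lower probes, and the count past the adjusted threshold runs from 0 to 2281 over the rows.

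The stability difference is the line difference at 9 h minus the line difference at 0 h, and both parts held called probes. Before treatment 203 probes (0.797%) differed between tRNA-Glu and mock cells at an adjusted p of 0.05 in limma, 118 higher (0.464%) and 85 lower (0.334%). After 9 h there were 649 such probes (2.55%), 397 higher (1.56%) and 252 lower (0.99%). The 9 h arrays do not include the array that lay apart, although it enters the shared estimate of spread. Without it the 9 h count was 1222 and the 0 h count 47, and without its partner the counts were 1222 and 2398. The 0 h count was 38 without mock replicate 1 and 68 without mock replicate 2. The 9 h count was 78 without mock 9 h replicate 1, 48 without mock 9 h replicate 2, 182 without tRNA-Glu 9 h replicate 1 and 116 without tRNA-Glu 9 h replicate 2. The counts at 0 h and 9 h were not tested against each other.

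ILMN_3268697 was the probe past the adjusted threshold. Its log2 signal was 7.78 and 7.80 on the mock 0 h arrays, 7.27 and 6.83 on the mock 9 h arrays, 6.46 and 6.71 on the tRNA-Glu 0 h arrays and 8.68 and 8.89 on the tRNA-Glu 9 h arrays. It was therefore below mock at 0 h and above mock at 9 h in both tRNA-Glu arrays. Each of its tRNA-Glu changes lay above each mock change, which held for 15.7% of all tested probes, and the reverse for 15.1%. The mock line lost 0.74 and the tRNA-Glu line gained 2.20, a stability difference of 2.94 (SE 0.30, adjusted p = 0.00557, limma). Leaving out tRNA-Glu 0 h replicate 1 kept the size, 2.81, with an adjusted p of 0.113. Its tRNA-Arg signals were 6.83 and 7.56 at 0 h and 7.28 and 7.56 at 9 h, between the other lines at 9 h.

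The next probe with a positive difference, ILMN_2074860, did not pass (adjusted p = 0.0592, limma). It had log2 signals of 7.13 and 7.35 on mock 0 h, 8.35 and 8.17 on mock 9 h, 7.07 and 7.34 on tRNA-Glu 0 h and 9.48 and 9.55 on tRNA-Glu 9 h arrays. Both lines were alike before treatment within their arrays' spread, and both had higher signal at 9 h, the tRNA-Glu line by 2.31 and the mock line by 1.02, a difference of 1.29 (SE 0.18), or 1.15 without tRNA-Glu 0 h replicate 1. The tRNA-Arg arrays, at 7.72 and 7.69 and then 9.44 and 9.50, stood beside the tRNA-Glu arrays at 9 h.

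On the negative side ILMN_1753567 had log2 signals of 7.33 and 7.23 on mock 0 h, 7.57 and 7.58 on mock 9 h, 7.85 and 7.89 on tRNA-Glu 0 h and 6.94 and 6.90 on tRNA-Glu 9 h arrays. The tRNA-Glu arrays were above all mock arrays at 0 h and below all of them at 9 h, a difference of -1.25 (SE 0.18, adjusted p = 0.0592, limma), or -1.27 without tRNA-Glu 0 h replicate 1. ILMN_1774826, at -1.54 (SE 0.22, adjusted p = 0.0592, limma), was close to background. Its signal was not above the array median on either mock 0 h array or either tRNA-Glu 9 h array, so the size of each of its changes is not a measured level on both sides. Among these 4 probes, chosen for the smallest p-values, none was called when the stability of the tRNA-Glu line was tested against that of the tRNA-Arg line, with an adjusted p of 0.438 for ILMN_3268697 and 0.464 for each of the other 3 in limma.

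**Figure D2:**
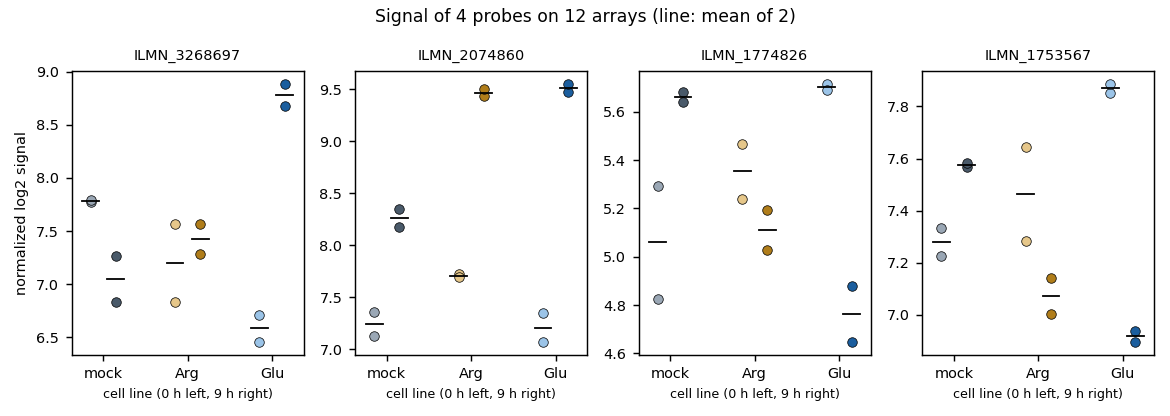
Normalized log2 signal (y axis) of the 4 probes with the smallest p-values, 2 in each direction, on each of the 12 arrays, by cell line with 0 h at the left and 9 h at the right, and a line at the mean of 2 arrays. ILMN_3268697 runs from 6.46 and 6.71 to 8.68 and 8.89 in the tRNA-Glu line while it is lower at 9 h than at 0 h in the mock line.

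To ask whether the difference followed how fast a transcript is lost, probes were placed in 5 equal bins by their 0 h to 9 h change in the tRNA-Arg line, whose arrays enter neither side of the comparison. In the first bin, 5092 probes with a median tRNA-Arg change of -0.55, the median change was -0.50 in the mock line and -0.56 in the tRNA-Glu line. Of these probes 11.6% were lower and 4.46% were higher at an unadjusted p of 0.05, against 9.15% and 8.11% of all probes. Among the probes that dropped most in the tRNA-Arg line, lower probes thus outnumbered higher ones in tRNA-Glu cells. A change that both tRNA lines share against mock would also place probes in this bin and lower their difference. The bins cannot separate that from the rate of loss, and it was not tested. The median stability difference of that bin was -0.05, smaller than the spread between replicates of 0.06, and it was -0.09 without tRNA-Glu 0 h replicate 1. In bin 5, the probes with the largest relative gain, 12.7% were higher and 10.7% lower. That balance turned with median scaling, to 5.77% higher and 14.6% lower, and without tRNA-Glu 0 h replicate 2, to 17.1% and 19.2%. Without tRNA-Glu 0 h replicate 1 it was 9.25% and 6.32% in bin 5, and 2.38% higher and 8.96% lower in bin 1. The 3 bins between held 6.89% to 9.39% higher and 7.74% to 7.99% lower. In the first bin lower probes outnumbered higher ones under each of the 5 other background and normalization settings and with each of the 8 arrays left out. Signal after normalization is relative to the array, so a gain need not be a rise in the amount of an RNA.

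**Figure D3:**
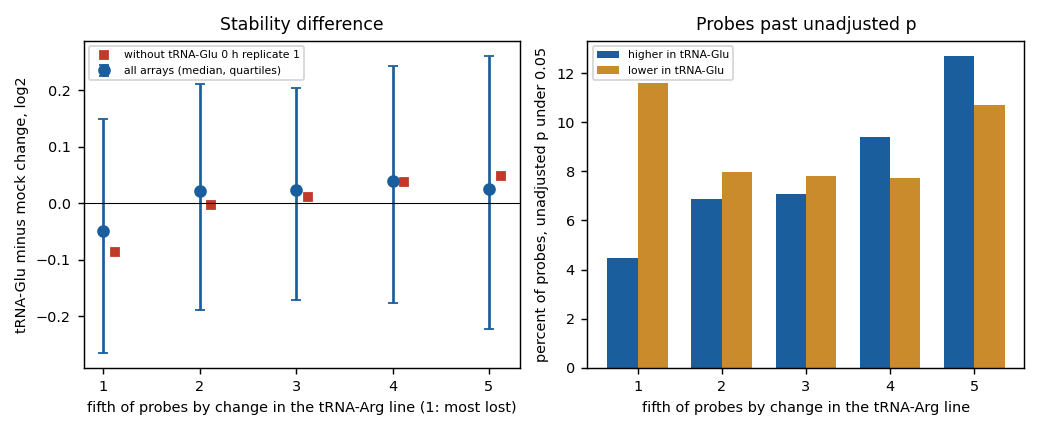
Left, the tRNA-Glu minus mock change on the log2 scale (median with quartiles, circles) by bin of probes ordered by their change in the tRNA-Arg line, with squares for the median without tRNA-Glu 0 h replicate 1. Right, the percent of probes in each bin with an unadjusted p under 0.05, higher or lower, where bin 1 has 4.46% higher and 11.6% lower.

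The gene families were read by symbol prefix from the authors' deposited table. Its score has no stated formula or unit, so it is used to place genes within that table. Olfactory receptors, which are rarely transcribed outside the nasal epithelium, show how far a score can lie without much transcript: all 387 olfactory receptor scores in the authors' deposited table lay between -0.145 and 0.155. The 76 keratin-associated protein genes, made in hair follicles, ran from -0.1 to 0.249 in the authors' deposited table. A limit of 0.25, beyond both sets, was therefore used to count members. Over all genes, 3.27% had a score of at least 0.25 and 3.27% had a score of at most -0.25 by the authors' deposited table, and the median was 0.00489. That share also covers 13093 placeholder names and both of these sets, and families could not be matched for expression. Members past the limit on either side made up 6.54% of all genes, but 22% of the EIF prefix and 24.7% of mitochondrial ribosomal proteins in the authors' deposited table. For each family the members past each side of the limit are counted, as a description with no test, since the authors' deposited table has no error for a gene.

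**Figure D4:**
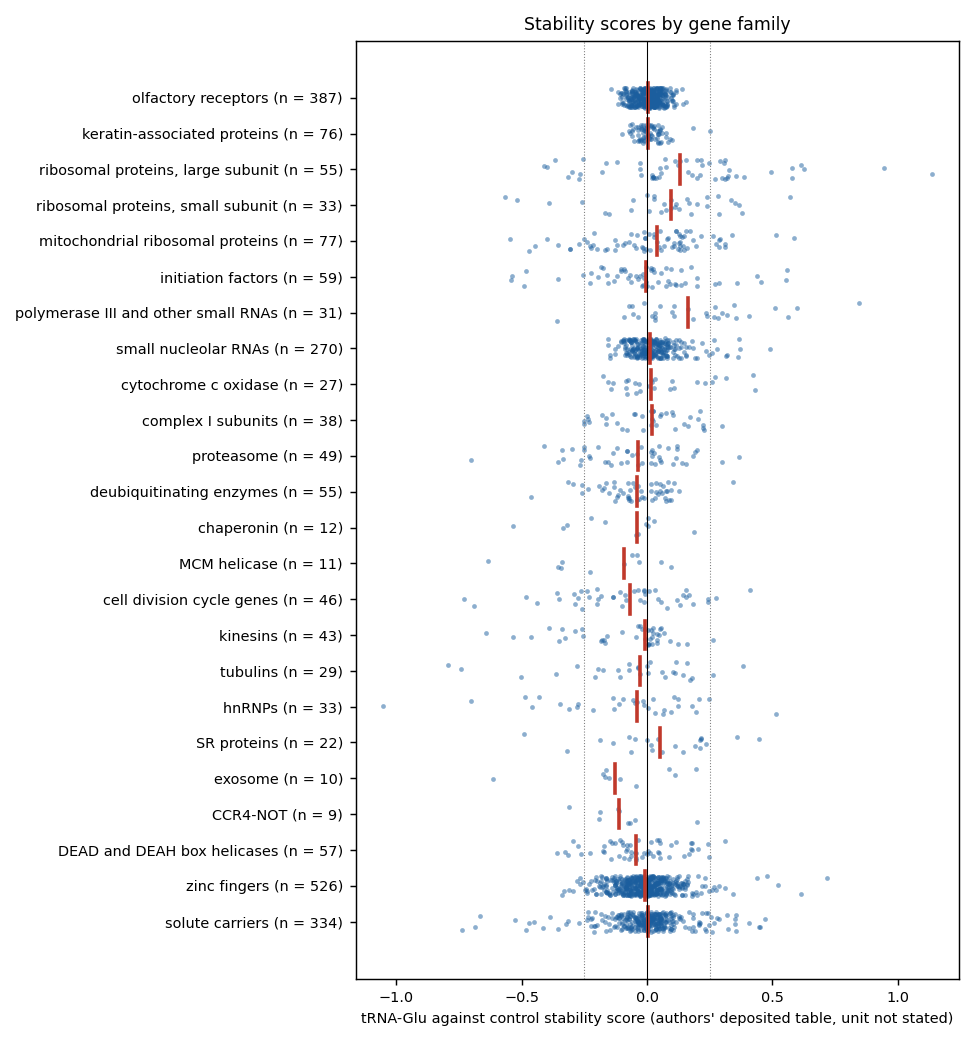
The tRNA-Glu against control stability score (x axis, unit not stated) of each gene in 24 families of the authors' deposited table (rows), with the family median as a red bar and dotted lines at -0.25 and 0.25. The olfactory receptors stay between -0.145 and 0.155, while the medians of the large ribosomal subunit (0.131) and of the polymerase III and other small RNAs (0.163) lie to the right of 0.

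Cytosolic ribosomal proteins, the protein part of the translating ribosome, leaned to positive scores and were also among the most spread families. Of 55 large-subunit genes, 18 had a score of at least 0.25 and 8 of at most -0.25, and their median was 0.131 by the authors' deposited table. Of 33 small-subunit genes, 7 were high and 4 low by the authors' deposited table, around a median score of 0.0973. The high end held RPL21 at 1.14, RPL26 at 0.944, RPL35A at 0.626 and RPS7 at 0.571 in the authors' deposited table. At the low end stood RPS3 at -0.564, RPS9 at -0.518, RPL13A at -0.41 and RPL14 at -0.4 in the authors' deposited table. Ribosomal protein mRNAs are known to start with a pyrimidine tract (the TOP motif), through which mTOR signalling controls their translation and the protein LARP1 their stability. The starts of the 2 highest and 2 lowest genes of each subunit that had a RefSeq window are shown. Their scores lie far apart by that choice. Among ribosomal protein genes with a window 75% hold such a run, and 7 of these 8 do. RPS7 has none by the rule given below, although a pyrimidine stretch that begins further upstream crosses its annotated start. RPS28, at 0.365 in the authors' deposited table, is high among small-subunit genes with a window but below several large-subunit genes. Each sequence covers 15 bases before and 15 after the start annotated by RefSeq (GRCh38.p14), with the C-led pyrimidine run at the start in capitals. Pyrimidines directly before the run, as in RPL21 and RPL13A, are not in capitals.
RPL21, chr13:27251543-27251572, plus strand: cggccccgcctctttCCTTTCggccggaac
RPL26, chr17:8383179-8383208, minus strand: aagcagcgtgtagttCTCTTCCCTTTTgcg
RPS7, chr2:3575245-3575274, plus strand: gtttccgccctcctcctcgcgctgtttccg
RPS28, chr19:8321481-8321510, plus strand: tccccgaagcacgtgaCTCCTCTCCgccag
RPS3, chr11:75399503-75399532, plus strand: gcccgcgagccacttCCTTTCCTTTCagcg
RPS9, chr19:54200843-54200872, plus strand: gtggcgcttccgcgCCTCTTTCTCagtgac
RPL13A, chr19:49487593-49487622, plus strand: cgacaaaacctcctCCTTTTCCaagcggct
RPL14, chr3:40457324-40457353, plus strand: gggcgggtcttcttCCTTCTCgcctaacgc

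The run searched for was a C followed by C or T to a length of at least 5, read on the gene's strand and beginning within 2 bases of the annotated start. It was found in 51 of the 68 ribosomal protein genes that had a RefSeq window (75%), against 15.2% of the table's protein-coding genes with a window and 10.5% of all 35116 windows. Ribosomal protein genes with the run had a median score of 0.111 and those without it 0.0758 in the authors' deposited table. Over all protein-coding genes with a window the median was 5.04e-05 with the run and -0.000699 without it in the authors' deposited table. A run of these letters is a description of the sequence and not evidence of a functional TOP mRNA. Many ribosomal protein genes have near-identical processed pseudogenes, so a probe may not separate them.

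**Figure D5:**
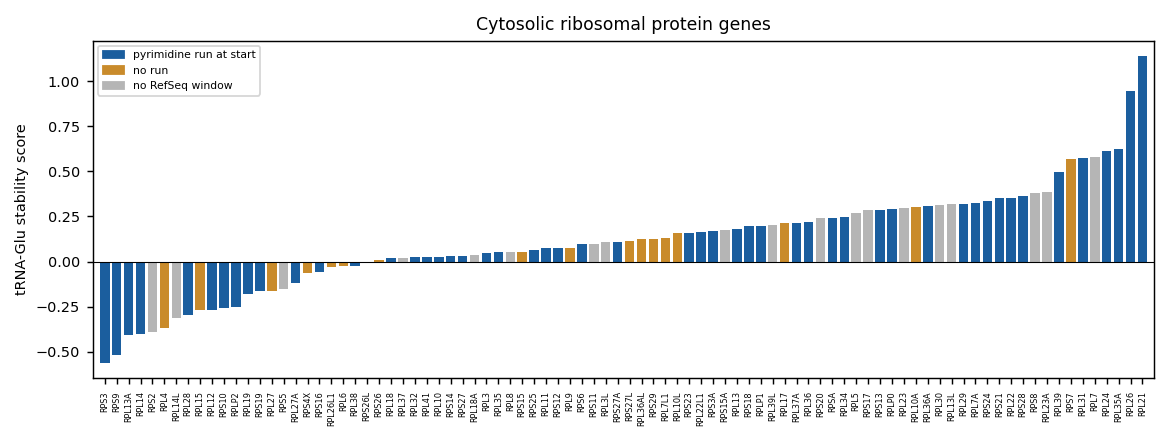
The tRNA-Glu stability score (y axis, unit not stated) of each cytosolic ribosomal protein gene in the authors' deposited table, in ascending order and coloured by whether a pyrimidine run was found at the RefSeq start. Genes with the run stand at both ends, from RPS3 at -0.564 to RPL21 at 1.14.

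The other translation families had nearer equal numbers on both sides, or few members past the limit. Mitochondrial ribosomal proteins had 10 high and 9 low members of 77 in the authors' deposited table, from MRPL12 at -0.547 to MRPL47 at 0.585. The EIF prefix, mostly initiation factors that load the ribosome on the mRNA, had 7 high and 6 low of 59 in the authors' deposited table. It takes in EIF2AK4, a kinase of eIF2α, at 0.553 in the authors' deposited table. Subunits of the same initiation factor stood at opposite ends, with EIF3A at 0.558 and EIF3D at -0.541 in the authors' deposited table. Among 9 elongation factor symbols, EEF1A2, a form of the factor that delivers charged tRNAs to the ribosome, had 0.55, while EEF1G and EEF1D of the exchange factor complex had -0.591 and -0.356 in the authors' deposited table. Of 20 aminoacyl-tRNA synthetases, which charge tRNAs, 4 were low and 1 was high in the authors' deposited table, with SARS for serine at -0.829, FARSA for phenylalanine at -0.401 and NARS for asparagine at 0.308.

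Small RNAs that are not mRNAs had the highest median of the 63 families, 0.163 by the authors' deposited table. Of 31 symbols, the authors' deposited table gave 12 a score of at least 0.25 and 1 a score of at most -0.25. The polymerase III product RN7SK, which keeps P-TEFb from releasing paused polymerase, had 0.844, the spliceosomal RNA RNU6-1 0.599 and the neuronal RNA BCYRN1 0.561 in the authors' deposited table. All 4 Y RNAs, polymerase III transcripts bound by the Ro protein, were above 0, with a median the authors' deposited table puts at 0.254. The 5 U1 entries, transcribed by polymerase II, were also above 0, their median being 0.345 by the authors' deposited table. The 2 U4 genes split, RNU4-2 at 0.283 and RNU4-1 at -0.359 in the authors' deposited table. RNU1F1 and RNU1G2, at 0.106 and 0.356 in the authors' deposited table, are names of 1 current gene. U1, U4 and U6 genes belong to sets of near-identical copies, so the listed copy is uncertain. Small nucleolar RNAs, guides for rRNA modification cut mostly from introns, had 9 high and 0 low members of 270 in the authors' deposited table. Their high share of 3.33% was close to the 3.27% of all genes in the authors' deposited table. The highest were SNORD3A at 0.492, SNORD104 at 0.372 and SNORD13 at 0.366 in the authors' deposited table. The median of the small nucleolar RNAs, 0.0135, also lay close to that of all genes in the authors' deposited table.

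MicroRNA symbols stayed mostly near 0, with 3 high and 3 low of 575 in the authors' deposited table. The 2 lowest stood far from the rest, MIR586 at -0.918 and MIR1228 at -0.79 in the authors' deposited table, and the symbol MIR1974 was the highest at 1.00. For MIR1974 and for MIR1978, at 0.257 in the authors' deposited table, no mature microRNA was found in RefSeq. The genes that RefSeq classes as miRNA had 1 high member and a maximum of 0.266 in the authors' deposited table. The mature sequences of the 2 lowest are shown to identify them, from RefSeq (GRCh38.p14), with the seed, bases 2 to 8, in capitals. The seeds differ between all 3.
hsa-miR-586, chr6:45197734-45197755, minus strand: uAUGCAUUguauuuuuaggucc
hsa-miR-1228-5p, chr12:57194504-57194524, plus strand: gUGGGCGGgggcaggugugug
hsa-miR-1228-3p, chr12:57194555-57194574, plus strand: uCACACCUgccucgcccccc
The array probe for such a symbol can read the precursor or a host transcript, and the authors' deposited table does not say which.

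Among the respiratory chain families, only cytochrome c oxidase had more than 2 members past the limit on 1 side. Over all genes 3.27% were past it on each side in the authors' deposited table. Cytochrome c oxidase genes (COX), the terminal enzyme of the chain, had 5 high and 0 low of 27 in the authors' deposited table, among them COX6C at 0.429 and COX7C at 0.317. ATP5E, a small subunit of ATP synthase, had 0.542 and UQCRH of the bc1 complex 0.427 in the authors' deposited table. The ATP synthase prefix had 1 high and 0 low of 18 in the authors' deposited table. The bc1 prefix had 2 high and 1 low of 9, the low one being UQCC at -0.27 in the authors' deposited table. Complex I subunits had 1 high and 2 low of 38, all within -0.251 and 0.3 in the authors' deposited table. Mitochondrial import genes had TOMM5, a small outer-membrane translocase subunit, at 0.48 and TIMM23, the inner-membrane channel, at -0.314 in the authors' deposited table.

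Several families of the cell division cycle had more low than high members. Of 11 MCM symbols, most of them parts of the helicase that opens origins of replication, 4 were low and 0 high in the authors' deposited table, with MCM2 at -0.634, MCM5 at -0.353 and MCM7 at -0.343. CDC and CDCA symbols had 11 low and 2 high of 46 in the authors' deposited table, with CDCA7L at -0.69 and CDCA8, a chromosomal passenger protein, at -0.484. The prefix also takes in genes of other roles, such as CDC123, an eIF2 assembly factor, at -0.728 in the authors' deposited table. Kinesins had 10 low and 1 high of 43 in the authors' deposited table, although their median was -0.00648. The low kinesins included the mitotic motors KIFC1 at -0.641 and KIF2C at -0.533 and the cargo motor KIF5B at -0.461 in the authors' deposited table. The authors' deposited table gave KIFC1 a tRNA-Arg score of 0.308, opposite in sign, and gave KIF2C and KIF5B -0.162 and -0.185, the same sign. These differences between the lines were not tested. The DNA polymerase prefixes and the RFC and ORC prefixes each had 1 high and 1 low member of 11 in the authors' deposited table. POLD2, a subunit of the replicative polymerase δ, had -0.632 and RFC2 of the clamp loader -0.318, while POLA2 of the primase complex had 0.356 and ORC2L of the origin recognition complex 0.287 in the authors' deposited table. The TUB prefix had 5 low and 2 high of 29, of which TUBGCP5 at 0.262 is a γ-tubulin complex protein, with TUBB2C at -0.794, TUBB at -0.503 and TUBB2A at 0.381 in the authors' deposited table, and the β-tubulin genes resemble each other closely enough that a probe may read several. The cyclins, which drive the cycle's kinases, had CCNF at -0.27 and CCNE1 at -0.257 past the limit, and no other of 25 genes in the authors' deposited table.

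Protein turnover and folding families differed among themselves, the proteasome, deubiquitinating enzyme and chaperonin prefixes having more low than high members. The proteasome prefix had 9 low and 2 high of 49 in the authors' deposited table, and its parts differed. PSMD genes of the regulatory particle had 5 low and 2 high of 14 and PSMB genes of the catalytic β ring 3 low and 0 high of 11 in the authors' deposited table. PSMA genes of the α ring and PSMC genes of the ATPase ring had no member past the limit, 8 and 6 genes in the authors' deposited table. The low count of the whole prefix includes PSMC3IP, a recombination factor and no proteasome subunit, at -0.355 in the authors' deposited table. PSMD4, a ubiquitin receptor, had -0.701, the catalytic subunit PSMB5 -0.411 and PSMD7 0.367 in the authors' deposited table. Deubiquitinating enzymes (USP) had 5 low and 1 high of 55 in the authors' deposited table, with USP10 at -0.462. Ubiquitin conjugating enzymes (UBE2) had 3 high and 1 low of 38 and F-box proteins 2 high and 1 low of 67 in the authors' deposited table. Of 12 chaperonin symbols, which fold actin and tubulin, CCT7 at -0.534, CCT2 at -0.334 and CCT8 at -0.319 were low and none was high in the authors' deposited table. J proteins (DNAJ) had 3 high and 5 low of 45 and the HSP prefix 2 high and 2 low of 44 in the authors' deposited table. The high count of HSP includes HSPC171 at 0.275, a name of TMEM208 and no heat shock protein. Under the name TMEM208 the score was 0.0356 in the authors' deposited table. PDIA6, an oxidoreductase of the endoplasmic reticulum, had -1.17 and its relative PDIA3 0.00137 in the authors' deposited table. HSPA1A and HSPA1B, inducible HSP70 genes of nearly the same sequence, had 0.333 and -0.209 in the authors' deposited table, so scores of that size can differ in sign between near copies.

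Families that bind, splice or degrade RNA were mixed. hnRNP symbols, packaging and splicing regulators, had 9 low and 1 high of 33 in the authors' deposited table, with HNRNPL at -1.05, HNRNPA1 at -0.487 and HNRNPUL2 at 0.512. Several of these genes stand under 2 names and are counted for each, and the calls at HNRNPH1, HNRNPM, HNRPR and HNRNPUL2 were not shared by the other name. HNRPR had -0.459 and HNRNPR -0.0379, and HNRNPUL2 had 0.512 and HNRPUL2 0.066 in the authors' deposited table. HNRPA1P4, a pseudogene of HNRNPA1, had -0.701 in the authors' deposited table, and probes may not tell the pair apart. SR proteins, the other large group of splicing regulators, had 2 low and 2 high of 22 in the authors' deposited table, from SFRS15 at -0.49 to SFRS7 at 0.447. DEAD and DEAH box helicases had 6 low and 1 high of 57 in the authors' deposited table. The exosome, the 3′ to 5′ RNA degrading complex, had the lowest median of the listed families at -0.128 over 10 genes in the authors' deposited table, but only EXOSC4 at -0.615 was past the limit. The deadenylase complex CCR4-NOT followed at -0.112 over 9 symbols, with CNOT6 at -0.31 and CNOT1 at 0.2 in the authors' deposited table. The reported tRNA-Glu(UUC) targets of this study, EXOSC2 and GRIPAP1, scored 0.195 and -0.114, both inside the limit, by the authors' deposited table. EXOSC2 was the highest of the 10 exosome genes there. The limit was set here to count family members and does not test whether a gene is a target.

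The ZNF, SLC and TMEM families had similar numbers on both sides. In the smaller families here the sides differed by few genes, where 3.27% of all genes were past the limit on each side. Among transcription factors, ZNF zinc fingers had 11 high and 8 low of 526 in the authors' deposited table, from ZNF212 at -0.339 to ZNF223 at 0.718. Forkhead symbols had 0 high and 3 low of 50 in the authors' deposited table, among them FOXM1, a factor of mitotic genes, at -0.427 and FOXQ1 at -0.441. Solute carriers had 15 high and 13 low of 334, with the mitochondrial citrate carrier SLC25A1 at -0.739 in the authors' deposited table. TMEM symbols had 12 of each among 241 in the authors' deposited table. The keratins were within the limit but for KRT19 at -0.748 and KRT80 at -0.524 in the authors' deposited table. Integrin symbols had 1 high and 3 low of 32 and collagens 3 high and 1 low of 43 in the authors' deposited table. The low integrin symbols include ITGB4BP at -0.429, a name of EIF6 and no integrin. Under the name EIF6 the score was 0.0562 in the authors' deposited table. ITGAV, an integrin subunit that binds vitronectin, had -0.478 and COL7A1, a collagen, 0.358 in the authors' deposited table. Actin-related symbols had 2 high and 3 low of 28 in the authors' deposited table. Subunits of the Arp2/3 complex had low scores, ARPC5L at -0.632 and ARPC4 at -0.506, while ACTR3 of the same complex had 0.449 in the authors' deposited table. V-ATPase genes, the proton pump of lysosomes, had 2 high and 3 low of 22, with ATP6V0D1 at -0.727 and ATP6V1A at 0.356 in the authors' deposited table. HLA genes, which present peptides to T cells, had 6 low and 3 high of 24, from -1.01 to 0.388 in the authors' deposited table. Histones, whose main mRNAs end in a stem loop and no poly(A) tail, had 1 high and 1 low of 70 in the authors' deposited table.

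Taking each run of leading letters shared by at least 10 genes, without the placeholder prefixes LOC and HS, gave 270 prefixes with 9151 genes. Their median scores ran from -0.128 for EXOSC to 0.111 for RPL in the authors' deposited table. Only 17 medians were at or below -0.05 and 9 at or above 0.05 in the authors' deposited table. After EXOSC came the low prefixes PSMD at -0.107, CAMK at -0.0957 and MCM at -0.0907 in the authors' deposited table. The highest after RPL were RNU at 0.102, CHMP at 0.0933 and RPS at 0.0873 in the authors' deposited table. CHMP genes, subunits of the ESCRT-III membrane scission complex, had 2 members past the limit on each side of 10 in the authors' deposited table. All 10 JMJD symbols, most of them histone demethylases, were below 0 but none passed the limit in the authors' deposited table. In 70 prefixes more members were high than low, in 68 the reverse, and in 99 none was past the limit in the authors' deposited table.

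Features that the prefixes do not use were compared next. Through RefSeq symbols or synonyms 57.1% of the listed names were matched, and 13093 of the names are placeholders. Protein-coding genes had 4.99% low and 3.78% high scores of 17744 in the authors' deposited table. The snRNA class had 6 high and 1 low of 16, and the lncRNA class 9 high and 0 low of 357 in the authors' deposited table. The high share was 37.5% in the snRNA class and 2.52% in the lncRNA class, against 3.27% of all genes in the authors' deposited table. By genomic length of protein-coding genes, low scores made up 4.88% of the shortest of 5 equal bins, 5.72% of the middle bin and 3.33% of the longest in the authors' deposited table. High scores made up 3.5%, 4.68% and 3.19% of these bins in the authors' deposited table. The next to longest bin had 5.46% low scores, above the shortest bin, and 3.39% high scores, below it, in the authors' deposited table.

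A total of 352 genes stood in that table under 2 names that RefSeq lists for 1 current gene, which gives 2 scores for 1 gene. Their scores differed by a median of 0.0829, comparing entries of the authors' deposited table. In 55 of these genes at least 1 name was past the limit, and both were past it in the same direction in 3 and in opposite directions in 1 of them in the authors' deposited table. The genes with both names past the limit on the same side were VOPP1 (-1.10 and, as ECOP, -1.04), MYOF (-0.525 and -0.514) and UBA1 (-0.468 and -0.281) in the authors' deposited table. PIP4K2B was the gene with opposite scores, -0.27 and 0.56 in the authors' deposited table. In 36 of the 55 both scores had the same sign. The score of a single symbol is thus often not shared by another entry of the same gene, and probes for different transcripts of it could not be told apart from measurement error here.

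Side by side with the tRNA-Arg line, which uses the same control arrays, fewer genes passed the same limit: the authors' deposited table puts 0.72% of them high and 0.879% low for that line. The large-subunit ribosomal proteins had 5 high and 0 low members in the tRNA-Arg column of the authors' deposited table, against 18 and 8 in the other. Their highest genes RPL21, RPL26 and RPL35A were high in both columns, with tRNA-Arg scores of 0.716, 0.537 and 0.42. The lowest, RPL13A and RPL14, had -0.12 and -0.011, inside the limit. Polymerase III and other small RNAs had 5 high and 0 low, against 12 and 1. RN7SK, RNU6-1 and BCYRN1 had 0.644, 0.392 and 0.158 in the tRNA-Arg column. The proteasome prefix had 2 high and 0 low there, against 2 and 9, and the hnRNPs 0 and 0, against 1 and 9 in the authors' deposited table. The PDIA genes had 2 low in both columns of the authors' deposited table, and the exosome 2 low for tRNA-Arg against 1. Differences between the lines were tested on the arrays only, where limma called 0 of 25456 probes for the stability of tRNA-Glu against tRNA-Arg. There were 2475 (9.72%) at an unadjusted p of 0.05, 1194 higher (4.69%) and 1281 lower (5.03%) in the tRNA-Glu line. Without tRNA-Glu 0 h replicate 1 the balance turned, with 1606 probes, 863 higher and 743 lower. Without replicate 2 there were 5112, and 637 passed the adjusted threshold. With cyclic loess the balance also turned, to 1273 higher and 1247 lower. A difference between the lines of a family was not tested.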

How the data were processed

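Illumina BeadChip signal was measured in 12 samples, 2 for each of 3 lines at 2 times, grouped by their titles. The deposited non-normalized table gives an intensity per probe for 47231 probes, per the file headers. The series matrix holds the authors' processed intensity values, linear and normalized between arrays as its shared ranks show. Per the labels, lumi was used, with no step given. The authors' stability score has no stated formula. The 12 columns of deposited detection p-values (p_value) name no sample and were not used. Log2 signals came from limma's normexp correction (offset 16) and quantile normalization. Tests covered probes above the array median on both arrays of at least 1 group (25456 probes). One limma fit of 6 group means over 12 arrays, without covariates, was followed by eBayes and Benjamini-Hochberg adjustment within each contrast at 0.05. The fit was tested on simulated data with known changes.

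The members, the 63 prefix families and the score limit of 0.25 were chosen with earlier results of these data known, and the 21 subfamilies after their values were seen. With no probe annotation, family medians could be computed only from the authors' deposited table, and array-based family medians and a choice of probe per gene were not run. Probes named are the 2 with the smallest p in each direction. In each family, named genes are among its 3 highest and 3 lowest scores. Names outside that rule, chosen after their values were seen, are RNU4-2, RNU1F1, RNU1G2, the genes and hnRNPs listed under 2 names, and prefixes given by rank. Replicate numbers did not pair samples: correlations of same-numbered deviations lay between -0.256 and 0.0859 in 15 group pairs. The fit ran in limma 3.58.1 under R 4.3.3. Scores were summarised with pandas 2.3.3 and numpy 2.4.6 under Python 3.11.15, and plots drawn with matplotlib 3.10.9. Alternatives changed background, scaling, filter, samples, block and weights, and left out each array.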

Additional observations from a re-analysis of the deposited data

Results flagged for a closer look

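ILMN_3268697 differed between the lines in its response to α-amanitin by limma's test of that difference (2.94 on the log2 scale), and was higher at 9 h in both tRNA-Glu arrays than in any mock array. Changes without overlap between the lines were common, with 15.7% of tested probes in the same direction. Groups of 2 arrays are too small for the test of a single outlying sample.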

How the results depend on the processing

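The count of called probes in the tRNA-Glu stability difference, 1 as reported, was 285 without background correction, 334 with an offset of 50, 113 with median scaling, 108 with the authors' processed values, 14 for probes above the floor on all 12 arrays and 0 with array weights. It was 1 with the replicate block, cyclic loess, no filter or only the 8 arrays, and 0 to 2281 with 1 array left out. With median scaling, 848 probes were higher and 4422 lower at an unadjusted p, and with 1 array left out 1447 to 3152 were higher and 1609 to 3408 lower. At 0 h (203) the count was 382 without background correction, 488 with an offset of 50, 385 with median scaling, 59 with no filter, 305 above the floor on all arrays, 79 with only the 8 arrays, 48 with array weights, 157 with the replicate block and 38 to 2398 with 1 array left out. At 9 h (649) it was 980, 1104, 322 and 109 under the first 4 of these, 173 with only the 8 arrays, 1420 with array weights, 558 with the replicate block and 48 to 1222 with 1 array left out. For tRNA-Glu against tRNA-Arg (0) it was 1 with an offset of 50 and 0 to 637 with 1 array left out. The causes were not tested. The 4 named probes kept their direction in each of 16 settings, and ILMN_3268697 passed in 13 of them, with adjusted p from 0.000285 to 0.113. Means in place of medians changed the sign of 6 of 63 families and moved 7, the largest being disulfide isomerases at -0.325, by more than the SD of olfactory receptor scores (0.0514). Alternatives for the bins by tRNA-Arg change were chosen after seeing the data. The array medians set the floor, and levels below it are not measured. Family medians on the arrays under these settings, and the choice of probe per gene, were not run, since probes carry no gene names.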
